A study of Mus musculus with 3 samples.

Results

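Antisense transcripts are described here: rows of the expression table that carry a NONCODE identifier, lie over at least 1 Ensembl gene on the opposite strand and lie over none on their own strand. NONCODE is a catalogue of long noncoding RNA, and the rule used only the positions and strands in the table, not the measured values. It found 7655 members among 36912 NONCODE rows (20.7%) and 57561 rows in all (13.3%). The members were set beside 5223 Ensembl genes, each member being paired with the overlapped gene that shares most bases with it. Of the members, 7141 lay over 1 gene and 514 over 2 or more.

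RNA was sequenced from cultured MDSCs (myeloid-derived suppressor cells, which are immature and hold back T cells) of 3 C57BL/6 genotypes: lnc57Rik-/- (lnc57Rik KO), lncGM1082-/- (lncGM1082 KO) and wild type (WT). Per the labels' protocols, femur marrow was cultured with GM-CSF and IL6 for 4 days, the same for all groups, and total RNA was used. Each genotype has 1 library, so no difference below has a replicate check. The wording of the design leaves room for further samples of each genotype, and no source used here says whether a library pooled animals. Mice without lncGM1082 are not mentioned in the growth protocol, which speaks of C57BL/6 and lnc57Rik KO animals.

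An antisense transcript is copied from the strand opposite to a gene, and its RNA is complementary to that gene's transcript wherever exons of both cover the same bases. Many start near the promoter of the gene and run away from it, others start inside the gene or beyond its end. Known cases act on the gene they overlap, through chromatin, through collision of polymerases or through pairing of the RNAs, and many others have no known function.

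The sequences shown first are places where a member and a named gene meet, because the members are defined by these meetings. In the 4 genes chosen here the member starts inside the gene and runs back across its promoter, as members of other genes such as Hspa5 do, so that the same bases lie upstream of the gene and within the antisense span. The promoter windows below are the 250 bases before the RefSeq start site of the gene (GRCm38.p6), on the gene's strand, 5′ to 3′, and all 250 bases of each lie within the member. They are chr4:95052223-95052472 on the minus strand for Jun, chr11:69995516-69995765 on the plus strand for Phf23, chr13:83503784-83504033 on the plus strand for Mef2c and chr17:34305617-34305866 on the plus strand for H2-Eb1. Capitals mark 3 motifs, each read on either strand. The first is the CCAAT box, searched as CCAAT. Another is the TATA box, which was searched in the form TATAAA. The last is a core of sites for ETS factors, and its letters here were GGAAGT. A pattern of C/EBP sites, TTGCNNAA, was searched for as well, again on both strands, without a match.
Jun promoter: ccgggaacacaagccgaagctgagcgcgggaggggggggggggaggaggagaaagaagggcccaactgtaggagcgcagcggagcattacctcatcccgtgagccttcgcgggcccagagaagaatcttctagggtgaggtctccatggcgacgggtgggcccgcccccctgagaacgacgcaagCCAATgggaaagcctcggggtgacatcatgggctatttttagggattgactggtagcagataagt
Phf23 promoter: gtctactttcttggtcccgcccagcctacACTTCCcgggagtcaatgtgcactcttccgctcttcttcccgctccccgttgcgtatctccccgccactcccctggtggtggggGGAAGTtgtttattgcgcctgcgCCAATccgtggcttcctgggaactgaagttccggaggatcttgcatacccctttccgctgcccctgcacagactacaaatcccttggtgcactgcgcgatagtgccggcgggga
Mef2c promoter: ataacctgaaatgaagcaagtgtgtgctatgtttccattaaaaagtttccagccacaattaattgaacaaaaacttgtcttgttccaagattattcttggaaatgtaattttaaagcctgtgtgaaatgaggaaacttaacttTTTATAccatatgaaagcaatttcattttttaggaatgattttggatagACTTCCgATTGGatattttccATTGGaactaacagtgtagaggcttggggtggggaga
H2-Eb1 promoter: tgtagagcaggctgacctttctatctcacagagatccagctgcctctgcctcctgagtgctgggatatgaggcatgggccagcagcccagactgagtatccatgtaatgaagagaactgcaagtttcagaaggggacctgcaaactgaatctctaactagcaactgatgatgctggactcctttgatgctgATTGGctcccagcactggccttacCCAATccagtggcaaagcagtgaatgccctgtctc

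The Jun and Phf23 windows were rich in G and C, with 61.2% and 60.4% of bases and 15 and 16 CG pairs. The Mef2c window had 33.6% G and C and 1 CG pair, and the H2-Eb1 window 51.6% and 0. Over 32851 RefSeq promoter windows of this length the medians were 52.4% and 6 CG pairs. All 4 windows held CCAAT, which 33.8% of all the promoter windows hold. GGAAGT stood in the Phf23 and Mef2c windows and in 19.7% of all windows. TATAAA stood in the Mef2c window, on the strand opposite to the gene, and in 12.4% of all windows, while 9.56% hold TTGCNNAA. These matches describe the letters only.

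A second kind of meeting lies inside the coding sequence. The most abundant member, NONMMUG052344.1, covers 112 coding bases of Ccl3 (chr11:83648569-83648680 on the minus strand), and NONMMUG053297.1 covers 54 coding bases of Car4 (chr11:84962386-84962439 on the plus strand). They are shown from the gene's strand in GENCODE M21 transcripts (GRCm38), with the covered bases in capitals and up to 15 coding bases on either side in lower case. RNA of the member is complementary to the capitals only if they are part of the member's exons, whose structure the table does not give.
Ccl3 coding bases: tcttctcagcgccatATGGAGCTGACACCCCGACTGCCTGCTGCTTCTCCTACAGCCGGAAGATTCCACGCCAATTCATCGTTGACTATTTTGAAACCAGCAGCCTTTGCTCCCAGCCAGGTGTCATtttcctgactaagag
Car4 coding bases: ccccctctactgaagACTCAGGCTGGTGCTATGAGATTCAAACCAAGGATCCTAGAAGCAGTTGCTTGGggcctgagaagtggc

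Levels are in FPKM, a fragment count divided by transcript length and by library size. They rest on 17593437 fragments in the lnc57Rik KO library, 18280433 in the lncGM1082 KO library and 18485089 in the WT library, as recovered from the steps between low values. The labelled cell type was checked against fixed marker lists. Neutrophil markers were abundant, with 13796, 10660 and 15568 FPKM summed over 29 rows in lnc57Rik KO, lncGM1082 KO and WT cells, and none of them was at 0 in any library. Much of each sum was S100a8, with 2610, 1672 and 2718 FPKM, and S100a9, with 4509, 2833 and 4521 FPKM. Ly6g had 21.1, 33.9 and 73.4 FPKM. Monocyte and macrophage markers summed to 2280, 2599 and 3359 FPKM over 24 rows. The row at the position of Arhgap33os, for which Gm1082 is another name, is NONMMUG078287.1; it overlaps no Ensembl row and is no member. It had 0.062 FPKM in lncGM1082 KO cells, 0 in lnc57Rik KO cells and 0.0204 in WT cells. Even at the length of its whole span that comes to 8.01, 0 and 2.67 fragments in the same order. So few fragments do not settle the state of the deletion. For lnc57Rik no row of the table could be matched. No source used here gives the strand setting of the counting. Without strand, reads from a gene and its antisense partner cannot be told apart where they overlap. Total RNA can hold unspliced RNA of the gene, so members within introns are not exempt. Mixing of reads was not tested.

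Most members lay wholly within the gene they oppose. There were 4990 such members, 1488 whose 5′ end overlapped the 5′ end of the gene, 959 whose 3′ end overlapped its 3′ end and 218 that enclosed the gene. The median span was 3256 bases, with a range from 203 to 439908. The paired gene was protein coding in GENCODE M21 for 7391 members. A GENCODE gene on the member's own strand matched at least 50% of both spans for 2258 members (29.5%), so most of them stand outside that annotation. Of 7217 members whose exon overlap is known, 2396 held no exon of the genes they lie over.

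Members that meet the 5′ end of a gene tended to start shortly inside it. Their 5′ end lay a median of 621 bases downstream of the gene's start, within 500 bases for 638 and within 1000 bases for 977 of the 1488. Among the named members, that of Phf23 started 51 bases inside the gene, that of Hspa5 262 bases, that of Jun 688 bases and that of H2-Eb1 2234 bases. The member of Msr1, the macrophage scavenger receptor, started 15889 bases inside its gene. The Mef2c member differs in kind, as its 5′ end lay 154519 bases into the gene, near the far end, so that it opposes nearly the whole gene.

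**Figure D1:**
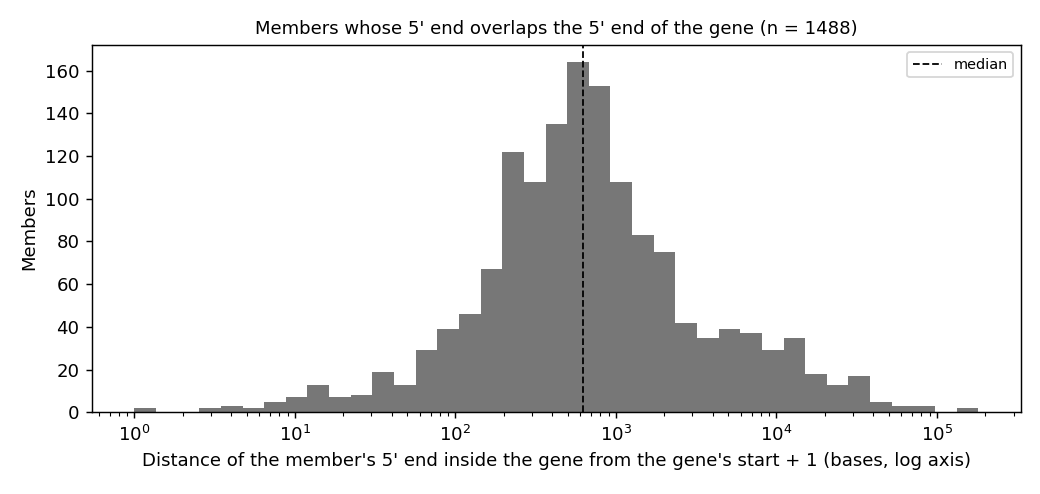
The histogram counts the 1488 members whose 5′ end overlaps that of a gene by the distance of the member's 5′ end from the gene's start, plus 1 base, on a log axis. The dashed line is the median, 621 bases.

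Antisense members were low in abundance beside their genes. Together they took 4.77% of summed FPKM in lnc57Rik KO cells, 4.96% in lncGM1082 KO cells and 4.80% in WT cells. None was at 0 in all 3 libraries, 5719 were above 0 in every library, and 2902 (37.9%) reached a mean of 1 FPKM and were compared. In 2749 pairs both sides reached that mean: the member had a median of 2.82, 2.70 and 2.65 FPKM in lnc57Rik KO, lncGM1082 KO and WT cells, and the gene 10.4, 9.55 and 9.56 FPKM. The member was above its gene in 288 pairs by the mean (10.5%) and in 180 in every library.

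The level relative to the gene differed with the way the pair overlaps. The median ratio of member to gene was 0.312 over all pairs, 0.347 for 2235 members inside the gene, 0.217 for 247 at the 3′ end and 0.146 for 236 at the 5′ end. Members without an exon of the gene had a median ratio of 0.418 over 1132 pairs, against 0.256 over 1442 pairs with one. Pairs that share a gene are not independent, and no test was made of these ratios.

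The most abundant member, NONMMUG052344.1 (chr11:83648534-83649141, plus strand), lies within Ccl3, the gene of the macrophage inflammatory chemokine MIP-1 alpha, across the coding bases printed above. It had 215 FPKM in lnc57Rik KO cells, 252 in lncGM1082 KO cells and 337 in WT cells. Ccl3 (ENSMUSG00000000982) had 1026, 1571 and 1259 FPKM in the same order. The member was thus highest in WT cells and the gene highest in lncGM1082 KO cells.

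Members within metabolic genes came next. NONMMUG042969.2, in an intron of Pkm, the pyruvate kinase of the last step of glycolysis, had 137 FPKM in lnc57Rik KO cells, 192 in lncGM1082 KO cells and 198 in WT cells, and Pkm had 452, 495 and 475 FPKM. A second Pkm member, NONMMUG084779.1, had 78.6, 108 and 118 FPKM in the same order. The member of Slc2a1, the glucose transporter GLUT1, had 80.9 FPKM in lnc57Rik KO cells, 113 in lncGM1082 KO cells and 128 in WT cells. All 3 were lowest in lnc57Rik KO cells, while for Pkm itself lnc57Rik KO against WT had a ratio of 0.951 (95% interval 0.938 to 0.964).

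Some of the most abundant members exceeded their gene. NONMMUG058253.1, within Dach1, a transcriptional cofactor, had 61.1, 103 and 111 FPKM in lnc57Rik KO, lncGM1082 KO and WT cells, against 22.4, 29.4 and 30.6 FPKM for the gene. NONMMUG058708.1, within Lrmda, had 64.8, 105 and 82.0 FPKM, against 15.6, 15.8 and 19.4 FPKM for the gene. The member of Ptges, which makes prostaglandin E2, had 53.9 FPKM in lnc57Rik KO cells, 111 in lncGM1082 KO cells and 86.5 in WT cells, and Ptges 51.6, 93.2 and 52.1 FPKM. The member of Ikbke, a kinase of interferon induction, was below its gene, with 66.4, 101 and 83.4 FPKM, against 93.9, 134 and 127 FPKM for Ikbke. Each of the 4 was lowest in lnc57Rik KO cells.

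The first comparison asked how antisense transcripts of lnc57Rik KO cells differ from those of WT cells. The members with the largest positive folds lay opposite Ebf1, Mef2c, Chst3, Iglv3, Bach2 and Pax5, in that order, and each of these genes except Iglv3 had a log2 fold above 1 as well. Members were called by size alone: the log2 ratio of FPKM + 1 had to reach 1 or -1. By this rule 108 of 2902 members were higher and 51 lower, or 3.72% and 1.76%, where 3.39% and 1.53% of all 22202 rows compared were higher and lower. The shares are near the background. With the libraries scaled by the median ratio over rows, 2.80% of all rows were higher and 2.01% lower, so the excess of higher rows depends in part on scaling. The median log2 fold of the members was 0.04, and that of all rows 0.07. Of the 108 higher members, 65 were under 1 FPKM in WT cells, so they entered the comparison through another library.

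Ebf1 (early B cell factor, which starts the B cell programme) opposes 5 members, of which 3 were compared. NONMMUG053034.1 (chr11:44752014-44755594, minus strand), in an intron, had 7.50 FPKM in lnc57Rik KO cells, 0.252 in lncGM1082 KO cells and 0.166 in WT cells. That rested on at least 86, 3 and 2 fragments, a ratio of lnc57Rik KO to WT of 45.2 (95% interval 12.1 to 379) and a log2 fold of 2.87, the largest of all compared members. NONMMUG005880.2, in another intron, had 5.22, 0.520 and 0.257 FPKM in the same order, with a log2 fold of 2.31. That is 290, 30 and 15 fragments if its exons fill its span, and fewer if they do not. Ebf1 (ENSMUSG00000057098) had 3.95 FPKM in lnc57Rik KO cells, 0.258 in lncGM1082 KO cells and 0.161 in WT cells. Gene and members were high in the lnc57Rik KO library and low in the other 2. In bulk RNA, a larger share of cells of a type and more RNA per cell cannot be told apart.

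Pax5, which commits cells to the B lineage, opposes NONMMUG072043.1 with 5.72 FPKM in lnc57Rik KO cells, 0 in lncGM1082 KO cells and 0.253 in WT cells. The log2 fold against WT was 2.42, and that of Pax5 2.46. The Bach2 member NONMMUG073096.1 had 7.28, 0.0637 and 0.441 FPKM in lnc57Rik KO, lncGM1082 KO and WT cells, with a ratio to WT of 16.5 (7.75 to 42.0). Bach2, a repressor that shapes B and T cells, had 7.35, 0.391 and 0.316 FPKM. In these pairs the member reached a level like that of the coding gene in lnc57Rik KO cells.

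The member that runs back across the Mef2c promoter printed above, NONMMUG057230.1 (chr13:83498493-83658553, minus strand), had 7.96 FPKM in lnc57Rik KO cells, 0.656 in lncGM1082 KO cells and 0.433 in WT cells. Mef2c, a transcription factor of muscle and B cells, had 2.91, 0.442 and 0.465 FPKM, so the antisense row was above the gene in lnc57Rik KO cells. Its log2 fold was 2.64, and that of Mef2c 1.42. A second member inside Mef2c, NONMMUG057231.1, had 3.77, 0.726 and 0.718 FPKM.

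Foxp1, a forkhead factor needed for B cell development and also expressed in myeloid cells, opposes 5 members, all compared. NONMMUG077009.1 had 20.3 FPKM in lnc57Rik KO cells, 4.59 in lncGM1082 KO cells and 3.73 in WT cells, a log2 fold of 2.17, against 1.14 for Foxp1. NONMMUG077008.1, NONMMUG077007.1 and NONMMUG036136.2 had log2 folds of 1.24, 1.26 and 0.87. The fifth, NONMMUG077010.1, had 1.26, 3.03 and 1.60 FPKM and was below WT in lnc57Rik KO cells, although its ratio of 0.788 (0.225 to 2.59) is within counting error of 1. The interval of Foxp1 was 2.43 to 2.92, and the difference between member and gene was not tested.

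**Figure D2:**
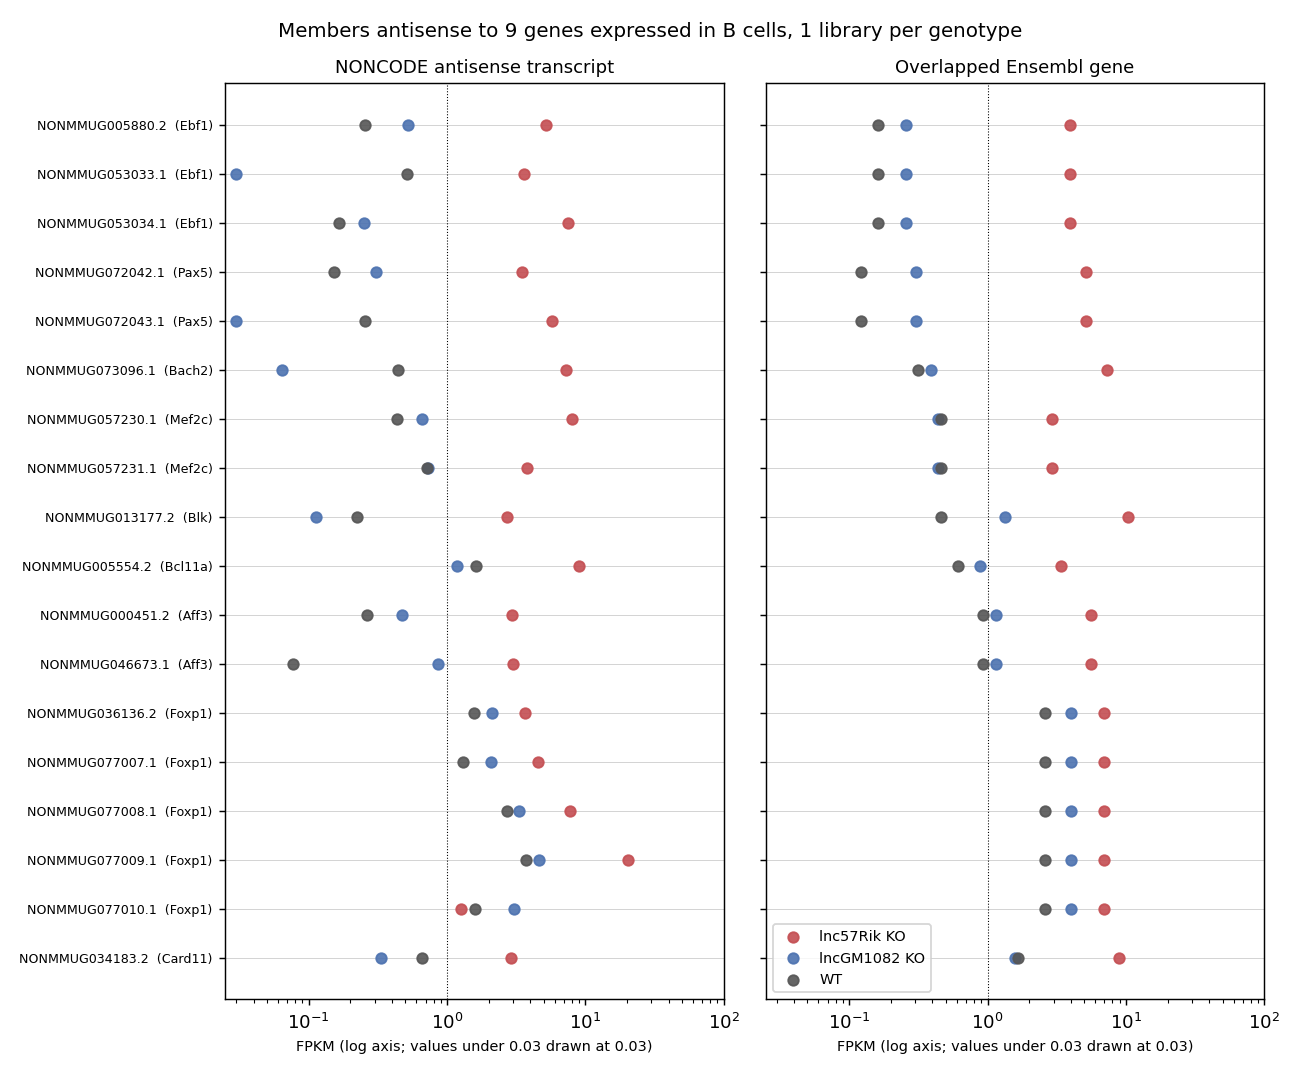
Levels in FPKM on a log axis of 18 compared members (left) and the Ensembl genes they lie over (right), with 1 point per library. The genes were chosen after their values were seen. In 17 of the 18 rows of the left panel the lnc57Rik KO point lies to the right of the other 2, the exception being NONMMUG077010.1.

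Other large positive folds lay in the same library. The member of Chst3, a chondroitin sulfotransferase, had 5.38 FPKM in lnc57Rik KO cells, 0.857 in lncGM1082 KO cells and 0.0652 in WT cells, and Chst3 had 12.8, 1.16 and 0.416 FPKM. The H2-Eb1 member, whose span covers the promoter printed above, had 5.80, 0.931 and 0.425 FPKM in the same order, and H2-Eb1, a class II antigen-presenting chain, 175, 84.9 and 95.5 FPKM. A member around Iglv3, a light chain variable segment, had 5.68, 0.388 and 0.128 FPKM, and Iglv3 was at 0.149 in lnc57Rik KO cells and at 0 in the other 2. All 3 members were highest in the lnc57Rik KO library, with log2 folds of 2.58, 2.26 and 2.57.

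Genes that mark B cells moved with these members. Of 20 lymphoid markers compared, 17 were higher in lnc57Rik KO than in WT cells by the rule of size and 0 lower, and the list summed to 343 FPKM in lnc57Rik KO cells, 93.8 in lncGM1082 KO cells and 74.8 in WT cells. Of its 31 rows, Igll1 and Vpreb2 were at 0 in lncGM1082 KO and WT cells, Cd3g and Rag2 in lncGM1082 KO cells, and Klrb1c in both knockouts. Cd79a, a chain of the B cell receptor, had 34.3, 3.12 and 2.49 FPKM. Some of the 20 compared markers passed the minimum mean only through the lnc57Rik KO library, such as Ms4a1 with 8.38, 0.442 and 0.332 FPKM. Such a row could not come out lower, so the filter in part sets the count. The same minimum applies to the lists that follow. Other lists moved too, where 3.79% of Ensembl genes were higher and 1.40% lower. Dendritic cell markers were higher for 8 of 17, eosinophil, basophil and mast cell markers for 7 of 17 and interferon response genes for 12 of 31, each with 0 lower. Monocyte and macrophage markers were higher for 3 and lower for 4 of 22, and neutrophil markers lower for 8 of 28 with 0 higher. The part of cell types in the folds of the members was not tested.

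The markers also show where a member did not follow. Of 17 members opposing 7 genes of the lymphoid list, 6 were compared and 5 were higher, with a median log2 fold of 2.14 against 0.04 for all members; these 5 belong to Ebf1 and Pax5 alone. They had 0.152 to 0.51 FPKM in WT cells and at most 0.52 in lncGM1082 KO cells, so they passed the minimum only through the lnc57Rik KO library, which sets the median. The sixth, NONMMUG079387.1, encloses Cd79a together with parts of Arhgef1 and Rps19, and had 7.31 FPKM in lnc57Rik KO cells, 4.17 in lncGM1082 KO cells and 5.67 in WT cells. Its ratio of 1.29 (0.707 to 2.38) is within counting error of 1, while Cd79a had a log2 fold of 3.34. The other 11 members of the list's genes were under the minimum.

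Some abundant members, averaging above 10 FPKM, passed the rule of size in lnc57Rik KO cells while their gene did not. These were chosen after their values were seen. NONMMUG030947.2, within Cep85, a centrosome protein, had 140 FPKM in lnc57Rik KO cells, 51.0 in lncGM1082 KO cells and 35.3 in WT cells, a ratio to WT of 3.96 (3.64 to 4.30). Cep85 had 4.81, 4.50 and 4.72 FPKM. NONMMUG015781.2, within Zc3h7a, an RNA-binding zinc finger protein, had 49.6, 31.2 and 16.6 FPKM, against 26.5, 20.01 and 20.2 FPKM for the gene. Its ratio of lnc57Rik KO to WT was 2.99 (2.43 to 3.69), and that of Zc3h7a 1.31 (1.25 to 1.37). The member overlaps a GENCODE miRNA gene on its own strand, Gm23935. NONMMUG038403.2 had 37.7, 13.2 and 13.7 FPKM opposite AU020206, a long noncoding RNA gene listed at 0.0357 FPKM in lnc57Rik KO cells and at 0 in the other 2. Of these genes, Cep85 stayed near WT, Zc3h7a moved with its member to a smaller extent, and AU020206 was too low to compare.

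The lower members in lnc57Rik KO cells were led by Kcnn3, a calcium-activated potassium channel. NONMMUG071206.1 had 2.90 FPKM in lnc57Rik KO cells, 11.6 in lncGM1082 KO cells and 17.0 in WT cells, a ratio to WT of 0.171 (0.0871 to 0.309) and a log2 fold of -2.20. The other Kcnn3 member, NONMMUG071205.1, had 1.06, 3.67 and 6.86 FPKM, and Kcnn3 itself 3.73, 7.74 and 12.0 FPKM. Both members and the gene ranked the 3 libraries alike, with WT highest.

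The Car4 member, which covers the coding bases printed above, had 16.3 FPKM in lnc57Rik KO cells, 34.6 in lncGM1082 KO cells and 58.6 in WT cells. Car4, a membrane-bound carbonic anhydrase, had 146, 247 and 511 FPKM, and the log2 folds against WT were -1.79 for the member and -1.80 for the gene. The span of the member covers 482 exon bases of Car4, and how many of them lie in the member's own exons is unknown. The member in an intron of Fbxl5, the iron-sensing part of a ubiquitin ligase, had 34.2, 56.8 and 83.9 FPKM, and Fbxl5 72.6, 129 and 163 FPKM. It is named here after its values were seen, since 4 lower members lay over a gene that was lower too: the 2 of Kcnn3 and those of Car4 and Fbxl5.

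Other lower members lay over genes with smaller folds. The member of Adgrl2, an adhesion receptor, had 0.193 FPKM in lnc57Rik KO cells, 2.78 in lncGM1082 KO cells and 3.67 in WT cells, and its gene 4.51, 9.40 and 8.21 FPKM. The lnc57Rik KO value of the member is 1 fragment or more, and its ratio to WT was 0.0525 (0.00127 to 0.328). The member of Rnf128, a ubiquitin ligase of T cell anergy, had a log2 fold of -1.64 and its gene -0.36. For Tlr13, the receptor of bacterial ribosomal RNA in mice, the folds were -1.44 and -0.31, and for Kctd1, a transcriptional repressor, -1.50 and -0.26. NONMMUG063638.1, within the lipid phosphatase gene Synj2, had -1.47, against 0.06 for the gene.

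**Figure D3:**
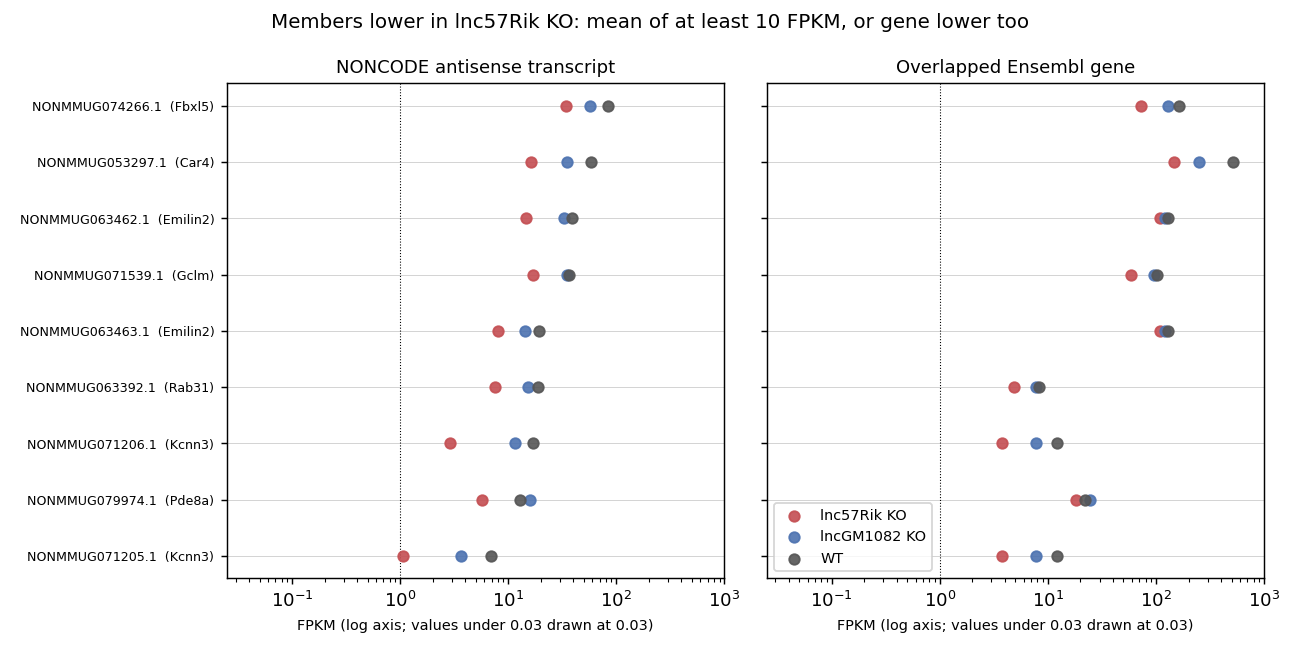
Levels in FPKM on a log axis of 9 members that were lower in lnc57Rik KO than in WT cells (left) and of their genes (right), with 1 point per library. The members average 10 FPKM or more, or lie over a gene that was also lower, and were chosen after their values were seen. The WT point is the rightmost member point in 8 of the 9 rows, the exception being Pde8a.

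Over 2749 pairs, the log2 folds of lnc57Rik KO against WT correlated between member and gene with a Pearson r of 0.60 and a Spearman coefficient of 0.54. Of 96 higher members with a measured gene, 88 lay over a gene with a fold above 0, 34 over a gene that was higher by the rule of size and 0 over one that was lower. Over all pairs, 61.0% of genes had a fold above 0 and 2.26% were higher. Of 49 lower members, 44 lay over a gene with a fold below 0 and 4 over a gene that was lower, where 39.0% of all paired genes had a fold below 0 and 0.291% were lower. The correlation was 0.63 for members that hold no exon of the gene and 0.58 for those that do. It was lower, at 0.51, for 615 members whose values are whole fragments at the length of their span, and 0.45 for the 353 of these without an exon of the gene. Member and gene come from the same libraries and some pairs share a gene. Both sides also had to reach a mean of 1 FPKM over the 3 libraries. Of the 108 higher members, 65 were under 1 FPKM in WT cells. Genes such as Ebf1 and Pax5 likewise passed only through the lnc57Rik KO library, so the filter favours pairs in which both sides are higher.

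**Figure D4:**
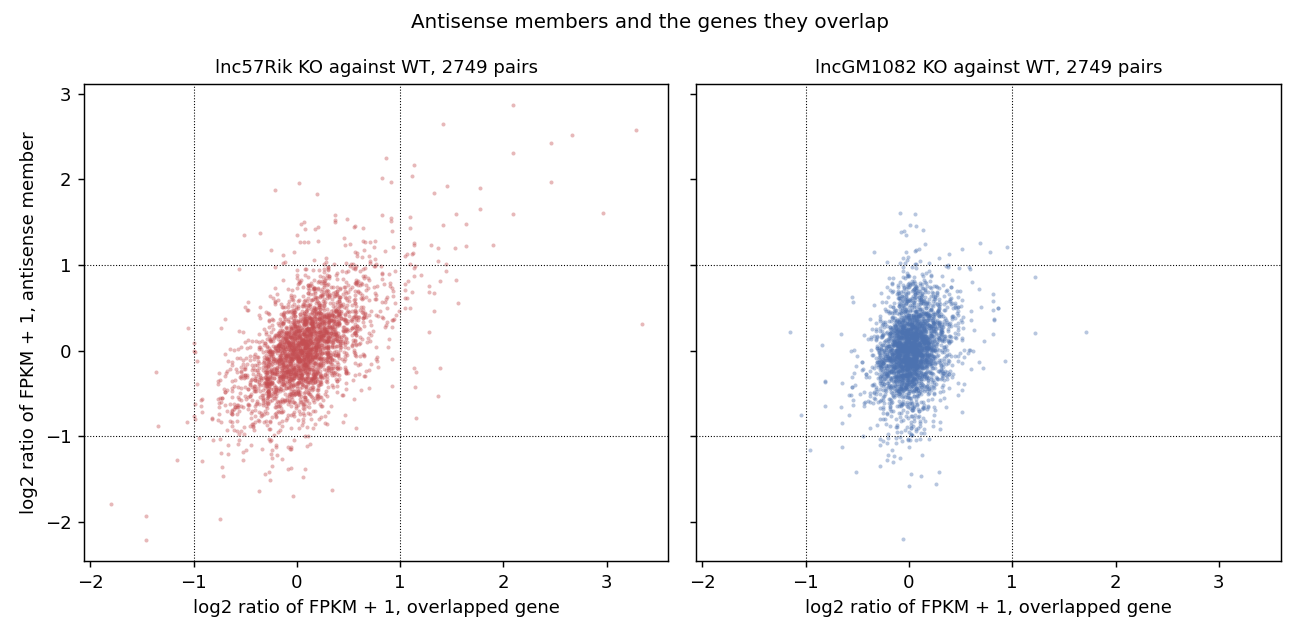
Each of the 2749 points is a pair, with the log2 ratio of FPKM + 1 of the overlapped gene on the x axis and that of the antisense member on the y axis, for lnc57Rik KO against WT (left) and lncGM1082 KO against WT (right). Dotted lines mark an absolute log2 fold of 1. The correlation across pairs is 0.60 on the left and 0.26 on the right.

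In lncGM1082 KO cells the antisense members were closer to WT. By the rule of size 33 members were higher and 34 lower, or 1.14% and 1.17%, where 0.865% and 0.946% of all rows were. The median log2 fold was 0.01 for members and for all rows. Across the 2749 pairs the Pearson r was 0.26 and the Spearman coefficient 0.24. Of 30 higher members with a measured gene, 18 lay over a gene with a fold above 0 and 0 over a gene that was higher, and of 33 lower members, 23 lay over a gene with a fold below 0 and 0 over a gene that was lower. The shares above and below 0 over all paired genes were 54.5% and 45.5%. Only 3 of all paired genes were higher and 2 lower, so few such pairs could be found.

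Hsph1, a chaperone of the HSP110 family, opposes the best measured of the higher members, NONMMUG075132.2 (chr5:149619414-149635818, plus strand). It had 16.8 FPKM in lncGM1082 KO cells, 5.03 in lnc57Rik KO cells and 6.42 in WT cells, on at least 132, 38 and 51 fragments. The ratio of lncGM1082 KO to WT was 2.62 (1.88 to 3.69) and the log2 fold 1.26, while Hsph1 had 38.7, 27.0 and 23.7 FPKM in the same order and a log2 fold of 0.68. The span of the member covers 4776 exon bases of the gene, and how many of them lie in the member's own exons is unknown.

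The largest positive fold, 1.61, lay within Tmem65, a mitochondrial membrane protein gene, where the member had 4.904 FPKM in lncGM1082 KO cells, 1.96 in lnc57Rik KO cells and 0.933 in WT cells. Tmem65 had 1.74, 1.47 and 1.91 FPKM and so did not share it. The Phf23 member, which starts 51 bases inside the gene and crosses the promoter printed above, had 4.83 FPKM in lncGM1082 KO cells, 3.05 in lnc57Rik KO cells and 1.19 in WT cells, on at least 28, 17 and 7 fragments. Phf23, a PHD finger protein, had 12.5, 15.1 and 11.3 FPKM.

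The member of Ly75, the endocytic receptor DEC-205 of dendritic cells, had 6.47 FPKM in lncGM1082 KO cells, 5.52 in lnc57Rik KO cells and 2.23 in WT cells. Ly75 had 25.6, 28.4 and 12.7 FPKM, so member and gene were lowest in WT cells. Members within Exoc6b, Plekhm3, Arfgap3 and Lrrk2 had log2 folds of 1.46, 1.25, 1.16 and 1.16, and their genes 0.07, 0.15, 0.06 and -0.34. The Plekhm3 member lies at a GENCODE pseudogene of a ribosomal protein, Rpl31-ps24, whose reads may come from near-identical copies.

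The largest negative fold, -2.20, belongs to NONMMUG042982.2 within Myo9a, a myosin motor gene. It had 0.197 FPKM in lncGM1082 KO cells, 2.05 in lnc57Rik KO cells and 4.49 in WT cells, on at least 1, 10 and 23 fragments, a ratio to WT of 0.044 (0.00107 to 0.271). It overlaps the processed pseudogene Gm2735, so its reads are uncertain in the same way. Myo9a had 5.40, 4.92 and 5.66 FPKM and did not share the fold.

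The better measured of the lower members lies within Mid1, a ubiquitin ligase of microtubules. NONMMUG087042.1 had 2.03 FPKM in lncGM1082 KO cells, 11.9 in lnc57Rik KO cells and 7.08 in WT cells, a ratio of lncGM1082 KO to WT of 0.286 (0.150 to 0.515). Mid1 had 0.635, 2.24 and 1.34 FPKM, so gene and member ranked the libraries alike. Members within Agap1, Dapk1, Lrmda, Atxn1, Synj2 and Dnmbp had log2 folds from -1.58 to -1.22, and their genes from -0.28 to 0.13. These 6 genes stood near WT while their members were lower.

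**Figure D5:**
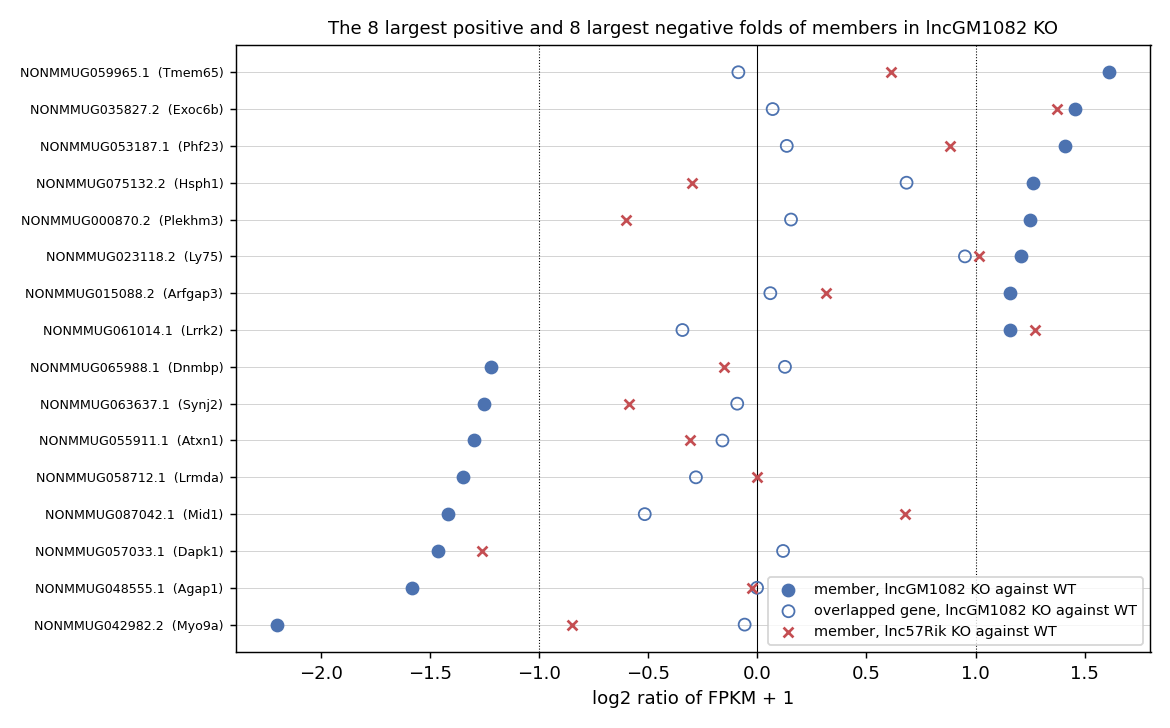
Log2 ratios of FPKM + 1 for the 16 members with the largest folds in lncGM1082 KO against WT, with filled circles for the member and open circles for its gene, and crosses for the member in lnc57Rik KO against WT, a comparison that shares the WT library. Open circles lie between -0.52 and 0.95, inside the dotted lines at an absolute log2 fold of 1.

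Nos2, the inducible nitric oxide synthase through which MDSCs suppress T cells, is opposed at its start by NONMMUG053271.1 (chr11:78917428-78922275, minus strand), whose 5′ end lies 1488 bases inside the gene. The member had 11.8 FPKM in lncGM1082 KO cells, 6.24 in lnc57Rik KO cells and 5.02 in WT cells, and Nos2 had 1087, 426 and 886 FPKM. In lncGM1082 KO cells the log2 folds were 1.08 for the member and 0.29 for Nos2, and in lnc57Rik KO cells 0.26 and -1.06. The member's ratio to WT was 2.34 (1.40 to 4.06) in lncGM1082 KO cells. In lnc57Rik KO cells it was 1.24 (0.677 to 2.30), which is within counting error of 1. Opposite Nt5e, the ectoenzyme CD73 that makes adenosine, NONMMUG085110.1 had 6.76 FPKM in lnc57Rik KO cells, 6.96 in lncGM1082 KO cells and 14.9 in WT cells, and Nt5e 11.3, 14.3 and 19.7 FPKM. The 2 were named after their values were seen. Over the list of suppressive effectors, 17 members of 13 genes were compared; their median log2 fold was -0.25 in lnc57Rik KO and -0.02 in lncGM1082 KO cells against WT, with 0 higher and 1 lower in lnc57Rik KO cells and 1 higher and 0 lower in lncGM1082 KO cells. For Cd274, the checkpoint ligand PD-L1, the member had 57.1, 63.2 and 49.1 FPKM in lnc57Rik KO, lncGM1082 KO and WT cells and the gene 207, 237 and 156 FPKM, both lowest in WT cells.

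Members opposite genes of glycolysis and hypoxia stood mostly below WT in lnc57Rik KO cells. Of 16 compared, 2 had a fold above 0, the median log2 fold was -0.46, and none passed the rule of size in either direction. These 16 oppose only 9 genes, with 4 members in Slc2a1, so they are not independent. The median log2 fold of the 9 genes was -0.22. For lncGM1082 KO cells 6 members were above 0 with a median of -0.14. Of 15 members of toll-like receptor and NF-kappa B genes, 1 was lower in lnc57Rik KO cells, that of Tlr13 named above, and 0 higher, with a median of -0.28. They oppose 8 genes, with 5 members in Irak3 and 4 in Irak2, and the genes had a median of -0.09. In lncGM1082 KO cells none of these members was called and their median was -0.03. All 5 members of cytokine and chemokine genes were below WT in lnc57Rik KO cells, with a median of -0.49, and none was called. Among them the Il1a member had 58.7, 65.8 and 80.6 FPKM in lnc57Rik KO, lncGM1082 KO and WT cells, while Il1a had 604, 590 and 540 FPKM.

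Of 16 members opposing the list of C/EBP and other myeloid factors none was called against WT in either knockout, with medians of 0.14 in lnc57Rik KO and 0.06 in lncGM1082 KO cells. The Jun member NONMMUG029868.3, which overlaps the annotated antisense gene Junos, had 7.36 FPKM in lnc57Rik KO cells, 10.8 in lncGM1082 KO cells and 12.9 in WT cells, and Jun 64.8, 92.9 and 75.4 FPKM. The Etv6 member had 24.4, 23.2 and 22.2 FPKM, near its gene at 27.0, 25.5 and 24.98 FPKM. Of 6 members of cell cycle genes 2 were higher in lnc57Rik KO cells, both of Ccnd3, cyclin D3, with log2 folds of 1.45 and 1.28 against 0.21 for the gene; in lncGM1082 KO cells none was called. Of 6 members of interferon response genes and 1 of ER stress genes, none was called in either. Opposite marker genes of other cells, the 1 neutrophil member (Padi4) was not called, 1 of 4 monocyte and macrophage members (Gpnmb) and the 1 dendritic member (H2-Eb1) were higher in lnc57Rik KO cells, and no erythroid or stromal member reached the minimum.

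In some genes with many members these moved together, and in others they did not. The genes described here were chosen after their values were seen. Of 2108 genes with a compared member, 1586 had 1, 57 had 4 or more, and Bicra and Lrmda had 8 each. All 5 members of Irak3, an inhibitor of toll-like receptor signalling in myeloid cells, were below WT in lnc57Rik KO cells, with log2 folds from -0.84 to -0.44, beside -0.63 for Irak3. The highest of them, NONMMUG050442.1, had 40.9 FPKM in lnc57Rik KO cells, 56.4 in lncGM1082 KO cells and 73.8 in WT cells. All 8 of Bicra, a chromatin remodelling subunit, were above WT, from 0.05 to 0.77, beside 0.11 for the gene. Signs were mixed elsewhere: 3 of 6 members of Atxn1 and 3 of 6 of Kansl1l were above WT in lnc57Rik KO cells. For Stx8 1 of 5 was above WT, beside a log2 fold of 0.22 for the gene. In lncGM1082 KO cells the 8 members of Lrmda spread from -1.35 to 0.35 around a gene at -0.28.

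Opposite movement of member and gene was seen in sign but never past the rule of size on both sides against WT. Of 1701 pairs with both means at 2 FPKM or more, 539 had folds of opposite sign in lnc57Rik KO cells and 682 in lncGM1082 KO cells against WT. Both sides passed the rule of size in 17 pairs in lnc57Rik KO cells and in 0 in lncGM1082 KO cells, and 0 of the 17 were opposite. Of the pairs that differed most, Rere, a nuclear receptor corepressor, had 13.3 FPKM in lnc57Rik KO cells, 6.66 in lncGM1082 KO cells and 5.48 in WT cells, while its member NONMMUG073899.1 had 4.81, 6.40 and 6.76 FPKM. The member of Ms4a4a, a membrane protein of macrophages, had 9.63, 5.27 and 4.49 FPKM and Ms4a4a 10.3, 16.6 and 15.7 FPKM. Within the predicted gene Gm47754, the member had 4.50 FPKM in lncGM1082 KO cells, 2.60 in lnc57Rik KO cells and 3.71 in WT cells, and the gene 0.703, 2.92 and 2.78 FPKM.

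Set against each other, lncGM1082 KO and lnc57Rik KO cells differed in 52 members that were higher and 120 that were lower in lncGM1082 KO cells, or 1.79% and 4.14%, where 1.31% and 3.07% of all rows were. With the libraries scaled by the median ratio over rows, 67 were higher and 92 lower, where 1.64% and 2.55% of all rows were. This comparison uses the same lnc57Rik KO library as the first. The Bcl2 member NONMMUG047209.1, in an intron, had 0.624 FPKM in lncGM1082 KO cells, 8.43 in lnc57Rik KO cells and 1.85 in WT cells, a log2 fold of -2.54. Bcl2, the inhibitor of apoptosis, had 0.478, 0.844 and 0.461 FPKM, so the antisense row was above the gene in each library. Between the knockouts 2 pairs, chosen after their values were seen, passed the rule of size in opposite directions. NONMMUG036148.2 had 2.66 FPKM in lncGM1082 KO cells and 0 in lnc57Rik KO cells, and its gene Gm20696 0.711 and 3.49 FPKM. That member averaged 1.03 FPKM, near the minimum, on at most 12 and 0 fragments. It spans 247 bases and overlaps a GENCODE misc_RNA gene on its own strand, Gm24936. NONMMUG094111.1 had 6.39 FPKM in lncGM1082 KO cells and 14.3 in lnc57Rik KO cells, and its gene Gm24265 230 and 114 FPKM. Gm24265 is a short gene of 141 exon bases that lies wholly within the member. The member of Ptges passed the rule here, with 1.03, and Ptges had 0.84.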

How the data were processed

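The authors deposited FPKM per row and library. Bowtie 0.12.2 and mm9 are named, without a role, per the submitters' processing notes. Positions in the table follow GRCm38: of 20649 Ensembl rows, 94.7% had the identical position in GENCODE M21, whose exons were used. No source used here gives the counter, its strand setting or its treatment of reads that match several rows. Columns of other samples numbered 0.

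Folds are log2 ratios of FPKM after adding 1, which understates changes of low rows, for rows with a mean of at least 1 FPKM over the 3 libraries. With 1 library per genotype there is no test; a row was called at an absolute log2 fold of at least 1.

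Fragment totals were recovered from FPKM steps of genes with 1 transcript; of their low values (under 20 fragments), at least 99.9% lay within 0.05 of a whole number, where 10% would by chance. Exons of members are unknown. For 642 of 2902 compared members the values were whole fragments at the length of the span, and those fragments were used. Such a match can arise by chance, and the interval can then be too narrow. Every other member got the smallest whole fragments that give its 3 values at an exon length of at least 200 bases. Intervals are exact 95% binomial ones, and for these other members no narrower than the true one. Intervals cover counting error only, since fragments are not independent molecules. The steps were checked on simulated data.

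Members and gene lists were chosen with earlier results of these data known. Named members were the 8 highest by mean; per knockout the 8 largest folds in each direction at a mean of at least 2 FPKM, and 4 between the knockouts; up to 2 per list; and 4 pairs of opposite sign per knockout. Alternatives were pseudocounts of 0.1 and 5, no filter, a mean of 5 FPKM, median ratio scaling, 200 overlapping bases and the most abundant overlapped gene as partner. Analyses used Python 3.11.15, pandas 2.3.3, numpy 2.4.6 and scipy 1.17.1.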

Additional observations from a re-analysis of the deposited data

How the results depend on the processing

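No paired analysis was possible because each genotype has 1 library. Counts of members called follow, higher then lower, for lnc57Rik KO against WT, lncGM1082 KO against WT and lncGM1082 KO against lnc57Rik KO. They were 108 and 51, 33 and 34, and 52 and 120 as reported. With a pseudocount of 0.1 they were 252 and 131, 139 and 120, and 140 and 238, where 6.29% and 3.25%, 2.57% and 2.34%, and 3.18% and 5.73% of all rows were called. With a pseudocount of 5 they were 14 and 4, 0 and 0, and 2 and 12, where 0.806% and 0.207%, 0.104% and 0.0811%, and 0.180% and 0.640% of all rows were. With a mean of at least 5 FPKM they were 12 and 14, 3 and 2, and 18 and 12, since most members lie under that mean; of all rows 2.56% and 1.34%, 0.625% and 0.438%, and 1.23% and 2.19% were called. The 12 of 731 higher in lnc57Rik KO cells are a share below that of all rows. Without a filter on the mean, the correlation of the folds of members and genes was 0.46 for lnc57Rik KO against WT and 0.40 between the knockouts, against 0.60 and 0.54 as reported; the cause was not tested. The counts and correlations moved less under median ratio scaling, 200 overlapping bases and the most abundant gene as partner. Of 122 folds of the 61 named members against WT, 38 passed the rule of size as reported; 30 of these no longer passed with a pseudocount of 5 and 1 with median ratio scaling, and 10 more passed with a pseudocount of 0.1. None reversed. Depth limits the low members most: the ratio of the Adgrl2 member, on at least 1 fragment in lnc57Rik KO and 20 in WT cells, had an interval from 0.00127 to 0.328.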

Other observations

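The pairs in this paragraph were chosen after their values were seen, because member and gene were both higher in lnc57Rik KO than in WT cells, and they stand for no theme. Of the 6 compared members opposite the list of interferon response genes, 3 had a fold above 0, 0 were called and the median log2 fold was 0.21. Opposite Nlrc5, the activator of class I antigen-presenting genes, NONMMUG082760.1 had 9.75 FPKM in lnc57Rik KO cells, 3.24 in lncGM1082 KO cells and 3.67 in WT cells, and Nlrc5 38.9, 17.4 and 14.5 FPKM. A second Nlrc5 member at the start of the gene, NONMMUG041327.2, had 3.36, 1.62 and 1.11 FPKM. The member of H2-Q4, a class I gene with near-identical relatives whose reads may be shared, had 12.2, 6.96 and 3.37 FPKM, and H2-Q4 54.5, 43.4 and 18.1 FPKM. The member across the start of Parp11, an ADP-ribosyltransferase, had 5.61, 1.57 and 0.609 FPKM, and Parp11 7.64, 3.70 and 3.003 FPKM. Within Coro2a, a coronin, the member was above the gene, with 33.2, 13.01 and 14.9 FPKM against 24.0, 12.5 and 11.1 FPKM for Coro2a. In each pair the lnc57Rik KO library was highest for both member and gene.

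Opposite genes of eosinophils, basophils and mast cells, 1 of 3 compared members was called, that of Prg2, the eosinophil major basic protein, with 2.39 FPKM in lnc57Rik KO cells, 1.76 in lncGM1082 KO cells and 0.670 in WT cells. The member of Gata2, a factor of mast cells and progenitors, had 4.82, 3.91 and 1.93 FPKM, and Gata2 14.96, 10.5 and 8.54 FPKM. Opposite Gpnmb, a macrophage glycoprotein, the member had 2.89, 1.28 and 0.595 FPKM, and Gpnmb 44.2, 42.4 and 25.8 FPKM. It was the 1 of 4 compared members of monocyte and macrophage genes with a fold above 0 in lnc57Rik KO cells, and the median of the 4 was -0.19. These 3 genes and their members were lowest in WT cells.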
